A study of Mus musculus with 6 samples.

Results

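The 45 genes described here encode proteins of DNA replication and mitosis, and are commonly read as a measure of how many cells of a culture are dividing. They were chosen by symbol, with earlier results of these data known, and all 45 were found among the 46095 gene symbols of the count table. All 45 also passed the filter on low counts, which left 16061 genes for testing. The cells were primary cultures of mouse nucleus pulposus, the soft core of the intervertebral disc, dissected at 8 weeks of age and grown to passage 2 in medium with 20% serum. The groups were Chsy3 knockout (KO), Chsy3 heterozygous (HE) and wild type (WT) cells, with 2 libraries each, and every library is labelled male. Chsy3 encodes a chondroitin sulfate synthase. The mouse strain, the way the allele was made, any pooling of mice and the origin of the 2 libraries of a genotype are not stated in the labels. The p-values therefore reflect the spread between these libraries alone, which may be technical.

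The division cycle runs through a gap phase, DNA synthesis (S phase), a further gap and mitosis. Cyclins switch on cyclin-dependent kinases at each step. Before S phase the MCM proteins are loaded on DNA, and transcription factors of the E2F family, released from the retinoblastoma protein, raise the genes of DNA synthesis. Later the MuvB complex, with B-Myb and FoxM1, raises the genes of mitosis through a promoter element called the cell cycle genes homology region (CHR), often beside CCAAT boxes bound by NF-Y. Adult nucleus pulposus cells divide rarely in the disc, whereas cells in culture with serum divide.

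Total counts ranged from 29622117 to 33899611 per library. Chsy3 had 118 and 76 counts in the KO libraries, 167 and 197 in the HE libraries, and 284 and 284 in the WT libraries, an order that follows the labels. Sex-linked genes set the HE libraries apart. The Y-linked genes Ddx3y, Uty, Kdm5d and Eif2s3y had 0 counts in both HE libraries, whereas Ddx3y reached 30.3 and 31.7 CPM (counts scaled to library size with TMM factors) in the KO libraries, and 27.3 and 21.5 CPM in the WT libraries. Xist had 651 and 654 CPM in the KO libraries, 1080.5 and 1072 CPM in the HE libraries, and 664 and 654 CPM in the WT libraries, which goes against the male label in each of the 6 libraries. Of 12 marker genes of nucleus pulposus and notochord, 5 passed the filter. The 12 summed to 60.4 and 62.0 CPM in the KO libraries, 74.6 and 72.6 CPM in the HE libraries, and 85.2 and 87.1 CPM in the WT libraries. Several were absent or nearly so. The notochord genes T, Shh, Noto and Foxa2 had 0 counts in every library, Acan had 8 counts in 1 WT library and 0 in the others, and Krt8 had at most 7. Fibroblast and macrophage genes were abundant, so the cultures are called here by their labels and not by these genes.

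The 45 genes together were lowest in the HE libraries. Their summed level was 3526 and 3557 CPM in the KO libraries, 2548 and 2577 CPM in the HE libraries, and 3442 and 3432 CPM in the WT libraries. Both HE libraries thus lay below all 4 other libraries, and the KO libraries lay just above the WT libraries. The HE mean of the sum was 74.6% of the WT mean, and the KO mean was 103% of it. Because the HE libraries also lacked Y-linked reads, genotype and the sex-linked difference cannot be told apart here. These genes took 0.359% and 0.364% of all counts in the KO libraries, 0.248% and 0.252% in the HE libraries, and 0.345% and 0.345% in the WT libraries. In bulk RNA, fewer dividing cells and less of these transcripts per dividing cell cannot be told apart, nor can the cell type that divides be told from these genes.

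**Figure D1:**
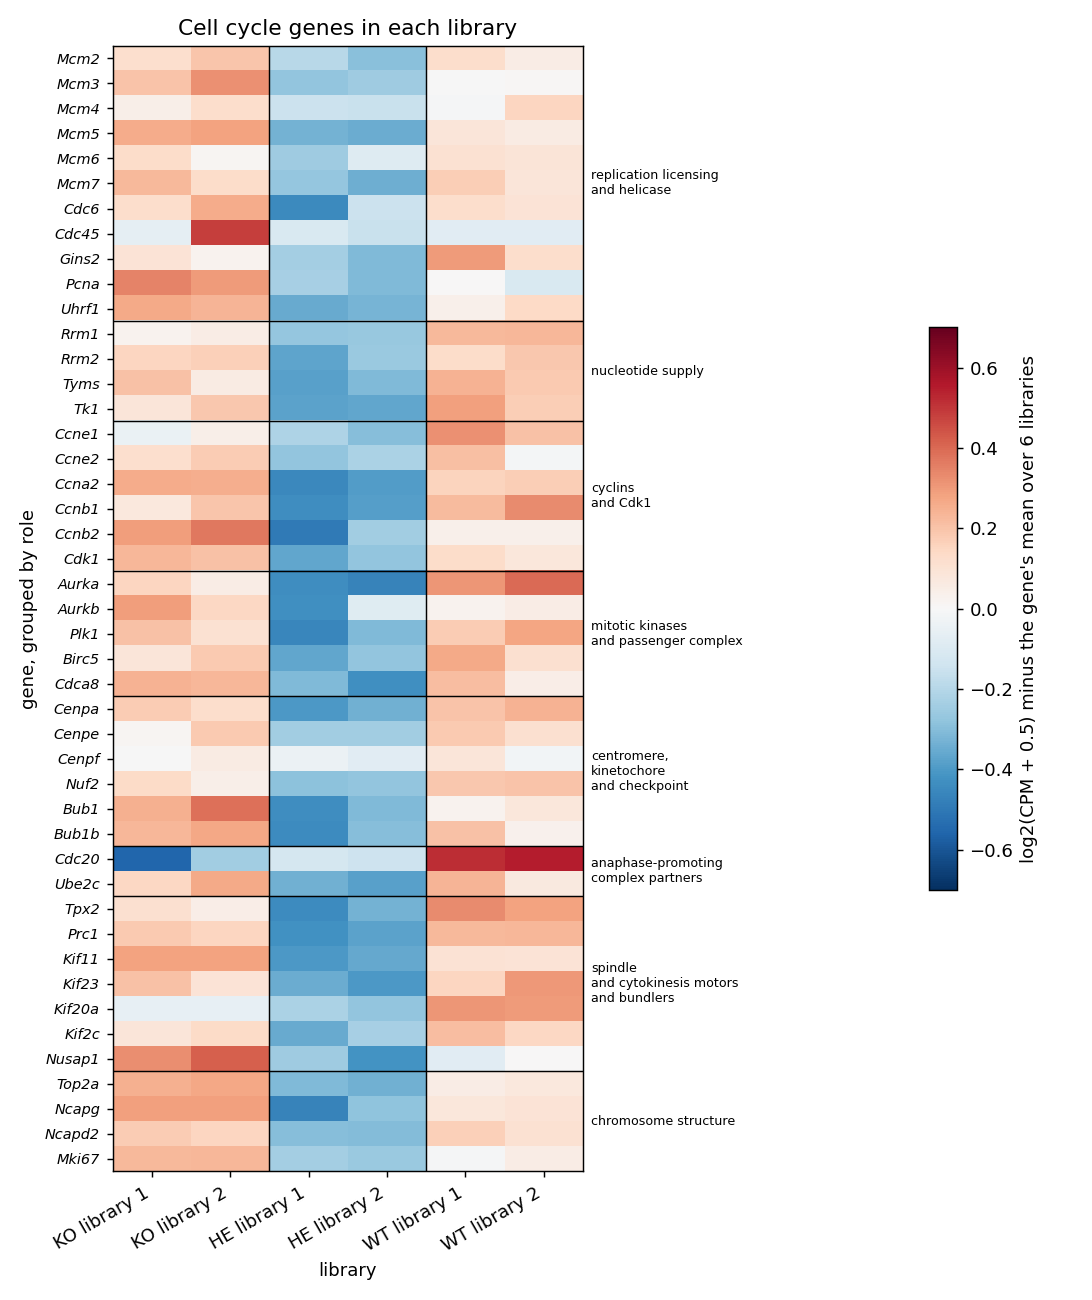
Level of each of the 45 cell cycle genes (vertical axis, grouped by role) in each of the 6 libraries (horizontal axis). Colour gives log2(CPM + 0.5) minus the mean of that gene over the 6 libraries, from blue (low) to red (high). The HE columns lie below 0 in all 45 genes, faintly so in Cenpf. Cdc20 differs in that both KO columns are lower still, with its lowest value in KO library 1. Cdc45 rests on 8 to 23 counts per library.

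The order HE below KO below WT held for the genotype means of 19 genes, and HE below WT below KO for 25. Cdc20 alone had the order KO below HE below WT. In 44 of the 45 genes the HE mean lay below both others, so the order of means did not follow the number of Chsy3 alleles. The HE libraries are also those without Y-linked reads, so genotype and the sex-linked difference cannot be told apart in this order. KO against WT did not pass the threshold in 28 of the 45 genes, so the order of KO and WT is uncertain in them. In the edgeR quasi-likelihood test with Benjamini-Hochberg adjustment over all 16061 genes, 26 of the 45 genes were lower in HE than in WT and higher in KO than in HE without passing the threshold of 0.05 in KO against WT. A further 11 were lower in HE against WT and higher in KO against WT, and 5 were lower in both, with KO above HE. Over all genes tested, 5.39% had the pattern of the 26, 1.60% that of the 11 and 1.86% that of the 5. Cenpf and Cdc45 passed in none of the 3 comparisons, as did 42.0% of all genes tested.

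Promoter windows of members that moved most against WT are printed here because 43 of the 45 genes were lower in HE, and the letters of the CHR, CCAAT and E2F elements can be read in them. RefSeq windows on GRCm38.p6, reaching from 250 bases before to 50 bases after an annotated start, were matched by symbol for 38 of the 45 genes. Mcm4, Gins2, Ccne2, Ccna2, Aurkb, Tpx2 and Kif20a had no entry. Capitals mark TTTGAA or TTCGAA (CHR), CCAAT, and TTTCCCGC, TTTCGCGC, TTTGCCGC or TTTGGCGC (E2F), each searched on both strands, so that CCAAT also appears as ATTGG. The windows of Mcm6 and Cdk1 were added after the matches had been seen, to show the E2F letters.
Cdc20: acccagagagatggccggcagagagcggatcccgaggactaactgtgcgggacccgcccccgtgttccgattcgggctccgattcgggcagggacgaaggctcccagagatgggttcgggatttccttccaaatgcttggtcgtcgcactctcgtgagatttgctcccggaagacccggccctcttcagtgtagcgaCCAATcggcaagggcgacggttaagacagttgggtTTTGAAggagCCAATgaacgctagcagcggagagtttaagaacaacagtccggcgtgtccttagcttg
Aurka: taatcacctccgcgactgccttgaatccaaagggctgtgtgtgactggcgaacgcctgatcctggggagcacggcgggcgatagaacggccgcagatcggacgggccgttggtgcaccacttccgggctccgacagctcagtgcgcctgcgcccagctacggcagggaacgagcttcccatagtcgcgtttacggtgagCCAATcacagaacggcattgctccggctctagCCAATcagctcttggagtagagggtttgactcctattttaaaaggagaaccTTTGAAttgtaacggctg
Ccnb1: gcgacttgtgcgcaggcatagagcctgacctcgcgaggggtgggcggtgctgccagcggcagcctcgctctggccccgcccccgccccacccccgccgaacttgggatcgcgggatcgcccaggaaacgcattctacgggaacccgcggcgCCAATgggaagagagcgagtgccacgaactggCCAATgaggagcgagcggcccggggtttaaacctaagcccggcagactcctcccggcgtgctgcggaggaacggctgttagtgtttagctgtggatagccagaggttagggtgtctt
Prc1: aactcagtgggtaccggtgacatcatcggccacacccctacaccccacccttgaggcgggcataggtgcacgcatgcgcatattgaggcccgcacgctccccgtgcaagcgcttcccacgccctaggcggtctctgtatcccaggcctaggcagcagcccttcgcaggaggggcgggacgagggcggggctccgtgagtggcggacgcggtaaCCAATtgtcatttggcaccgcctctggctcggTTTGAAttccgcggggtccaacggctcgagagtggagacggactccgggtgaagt
Kif23: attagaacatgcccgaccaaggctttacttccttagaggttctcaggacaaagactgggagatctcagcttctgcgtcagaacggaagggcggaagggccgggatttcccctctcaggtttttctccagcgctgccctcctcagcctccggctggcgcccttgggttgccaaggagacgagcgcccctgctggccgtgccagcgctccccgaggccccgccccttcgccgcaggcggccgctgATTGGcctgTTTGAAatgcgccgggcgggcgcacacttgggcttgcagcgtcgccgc
Plk1: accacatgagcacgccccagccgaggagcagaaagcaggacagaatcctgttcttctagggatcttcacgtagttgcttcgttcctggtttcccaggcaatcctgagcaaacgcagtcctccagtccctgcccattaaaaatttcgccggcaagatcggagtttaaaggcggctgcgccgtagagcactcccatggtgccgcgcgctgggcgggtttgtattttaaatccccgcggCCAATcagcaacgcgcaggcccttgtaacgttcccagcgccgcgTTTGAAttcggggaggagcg
Tk1: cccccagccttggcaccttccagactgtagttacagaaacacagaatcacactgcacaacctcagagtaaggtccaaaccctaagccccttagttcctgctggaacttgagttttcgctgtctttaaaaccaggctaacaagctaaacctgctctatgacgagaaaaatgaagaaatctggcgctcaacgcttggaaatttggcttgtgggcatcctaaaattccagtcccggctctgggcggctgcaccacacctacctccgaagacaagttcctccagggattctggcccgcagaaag
Cenpa: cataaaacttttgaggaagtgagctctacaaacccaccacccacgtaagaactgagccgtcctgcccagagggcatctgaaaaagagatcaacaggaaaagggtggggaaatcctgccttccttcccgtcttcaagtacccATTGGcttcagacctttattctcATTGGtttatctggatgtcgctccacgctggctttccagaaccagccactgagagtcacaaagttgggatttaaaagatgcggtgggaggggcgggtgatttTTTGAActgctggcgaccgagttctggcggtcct
Cdk1: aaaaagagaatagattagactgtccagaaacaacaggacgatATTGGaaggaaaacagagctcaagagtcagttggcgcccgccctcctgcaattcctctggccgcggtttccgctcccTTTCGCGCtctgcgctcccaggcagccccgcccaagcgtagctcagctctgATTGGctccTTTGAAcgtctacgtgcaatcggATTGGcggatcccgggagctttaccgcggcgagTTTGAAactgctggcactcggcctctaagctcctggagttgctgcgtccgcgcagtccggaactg
Mcm6: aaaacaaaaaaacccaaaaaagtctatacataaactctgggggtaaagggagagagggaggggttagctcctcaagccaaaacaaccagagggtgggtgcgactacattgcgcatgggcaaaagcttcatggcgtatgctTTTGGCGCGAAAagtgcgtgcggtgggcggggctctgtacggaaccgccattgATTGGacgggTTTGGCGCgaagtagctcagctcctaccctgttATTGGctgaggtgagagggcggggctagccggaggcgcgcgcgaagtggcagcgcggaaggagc
The windows lie at Cdc20 chr4:118437294-118437593 on the minus strand, Aurka chr2:172370521-172370820 on the minus strand, Ccnb1 chr13:100786437-100786736 on the minus strand and Prc1 chr7:80294201-80294500 on the plus strand. The others lie at Kif23 chr9:61946750-61947049 on the minus strand, Plk1 chr7:122159185-122159484 on the plus strand, Tk1 chr11:117825965-117826264 on the minus strand, Cenpa chr5:30666636-30666935 on the plus strand, Cdk1 chr10:69352863-69353162 on the minus strand and Mcm6 chr1:128359656-128359955 on the minus strand.

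In the windows of Cdc20, Aurka, Prc1, Kif23, Plk1 and Cenpa a single TTTGAA stands near the start, beginning 18 bases before it in Cdc20 and 5 bases before it in Prc1, and at base 33 after it in Aurka, base 3 in Kif23, base 31 in Plk1 and base 17 in Cenpa. Each of these 6 windows also holds at least 1 CCAAT. The Ccnb1 window holds CCAAT at 99 and 67 bases before the start and none of the CHR letters searched, and the Tk1 window holds none of the letters of the 3 elements. Over 1 window per gene, CHR letters stood in 22 of 38 members (57.9%), against 14.1% of 11120 tested genes with a window. CCAAT stood in 30 of 38 (78.9%), against 38.2%, and E2F letters in 8 of 38 (21.1%), against 3.82%. Of the 8 members with E2F letters, 5 belong to the replication genes, 2 to the genes of chromosome structure, and 1 is Cdk1. CHR and CCAAT stood together in 21 members. In these 38 windows, 2 pairs of matches of different elements overlapped. A match is a description of letters and not a site shown to be bound, and these elements are known from genes of this kind.

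Nearly every cell cycle gene was lower in heterozygous than in wild type cells. Of the 45, 43 were lower in HE and 0 higher (edgeR, adjusted p under the threshold of 0.05). Over all genes tested 19.7% were called lower and 19.2% higher, or 38.9% in either direction. No member was higher at an unadjusted p under 0.05 or in DESeq2. The median log2 fold change was -0.47 over the 45 genes and -0.0029 over all genes tested, and the 43 called genes lay between 56.7% and 85.8% of WT. The HE and WT libraries did not overlap for any of the 45 genes, against 67.0% of all genes tested. The paragraphs by role below divide these same 43 calls. Where libraries of a single gene are said not to overlap, that too is to be read against this share of all genes. The HE libraries are those without Y-linked reads, so genotype and the sex-linked difference cannot be told apart in this comparison.

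Markers of other cells moved as well, to be read against the 19.2% of all genes tested called higher and the 19.7% called lower in HE. Fibroblast markers summed to 45724 and 44519 CPM in the HE libraries, and 37870 and 38478 CPM in the WT libraries, with 9 of 11 called higher and 1 lower. Macrophage markers summed to 17408 and 17280 CPM in the HE libraries, and 14593 and 14316 CPM in the WT libraries, with 6 of 14 higher and 3 lower, and Aif1 at 0 throughout. Adipocyte markers summed to 388 and 392 CPM in the HE libraries, and 212 and 209 CPM in the WT libraries, with 7 of 7 higher. Of the 14 macrophage markers tested, 7 had a log2 fold change above 0 and 7 below, with a median of 0.024, so the higher sum was not shared by most of them. The summed fibroblast and macrophage markers were higher in HE while the cell cycle genes were lower, and the part of these shifts in the result was not tested. Of 12 nucleus pulposus and notochord markers 5 were tested, with 1 higher and 4 lower in HE, each by at least 2-fold. Their log2 fold changes ran from -4.39 to 1.85 with a median of -2.01, so the sum of this list given above understates these shifts. Lymphocyte markers were at 0 in every library for 4 of 5 genes, and Cd79a had at most 1 count.

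Among the 11 genes of replication licensing, helicase and fork, 10 were lower in HE, against 19.7% of all genes tested. Mcm2 to Mcm7 encode the ring of the replicative helicase. Mcm7 had 90.3 and 84.1 CPM in the KO libraries, 63.7 and 60.5 CPM in the HE libraries, and 86.7 and 81.8 CPM in the WT libraries. Mcm5 had 95.2 and 96.8 CPM in the KO libraries, 63.1 and 62.3 CPM in the HE libraries, and 84.3 and 83.0 CPM in the WT libraries. Both genes were lower in each HE library than in any other library, by log2 fold changes of -0.44 ± 0.05 and -0.41 ± 0.05 (SE) in HE against WT (edgeR, adjusted p = 8.26e-09 and 7.69e-09). Uhrf1, which reads hemimethylated DNA behind the fork, had 104 and 102 CPM in the KO libraries, 67.7 and 68.9 CPM in the HE libraries, and 88.9 and 95.5 CPM in the WT libraries. Its change in HE was -0.43 ± 0.05 (edgeR, adjusted p = 2.05e-09), and that of Mcm2 was -0.33 ± 0.05 (edgeR, adjusted p = 2.81e-06). The other MCM genes changed less, with Mcm3 at -0.26, Mcm6 at -0.27 and Mcm4 at -0.23 log2. The call of Mcm4 was lost without WT library 2 (edgeR, adjusted p = 0.0878), and that of Cdc6, a loader of the helicase, without HE library 1 (edgeR, adjusted p = 0.146). Mcm7 shares exon sequence with Cops6 and Ap4m1 on the opposite strand. Cops6 was also lower in HE against WT (edgeR, log2 -0.18, adjusted p = 0.00634), and Ap4m1 did not pass the threshold. Pcna has annotated pseudogene copies, with Pcna-ps2 at 1.18 CPM or less.

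All 4 genes of nucleotide supply were lower in HE, against 19.7% of all genes tested. Rrm1 and Rrm2 encode the subunits of ribonucleotide reductase, which makes the building blocks of DNA. Rrm1 had 177 and 181 CPM in the KO libraries, 145 and 145 CPM in the HE libraries, and 205 and 206 CPM in the WT libraries. Its 3 genotypes did not overlap, with HE lowest and WT highest (HE against WT log2 -0.50 ± 0.04, SE, edgeR, adjusted p = 1.93e-15). Rrm2 had 121 and 123 CPM in the KO libraries, 84.6 and 91.0 CPM in the HE libraries, and 119 and 124 CPM in the WT libraries. Here the KO and WT libraries overlapped and both lay above HE (HE against WT -0.47 ± 0.05, edgeR, adjusted p = 1.5e-11). Tk1, which encodes the thymidine kinase of S phase, was at 65.6% and Tyms, the thymidylate synthase, at 67.3% of WT in HE (edgeR, adjusted p = 6.01e-09 and 7.26e-06).

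The cyclins and Cdk1 were all lower in HE, 6 of 6, against 19.7% of all genes tested. Ccnb1 encodes cyclin B1, the partner of Cdk1 at mitotic entry, and had 36.7 and 39.8 CPM in the KO libraries, 25.6 and 26.5 CPM in the HE libraries, and 40.6 and 44.0 CPM in the WT libraries. Ccna2, the cyclin of S phase and early mitosis, had 96.3 and 95.9 CPM in the KO libraries, 58.8 and 61.3 CPM in the HE libraries, and 89.7 and 90.6 CPM in the WT libraries. Both were low in the HE libraries alone, at 61.7% and 66.6% of WT (log2 -0.70 ± 0.08 and -0.59 ± 0.05, SE, edgeR, adjusted p = 4.12e-10 and 7.92e-13). Cdk1 had 59.1 and 58.0 CPM in the KO libraries, 39.0 and 41.4 CPM in the HE libraries, and 54.9 and 53.1 CPM in the WT libraries (HE against WT -0.43 ± 0.06, edgeR, adjusted p = 4.91e-07). Ccne1, a cyclin of S-phase entry, changed by -0.53 ± 0.09 in HE (edgeR, adjusted p = 2.39e-06). Its relative Ccne2 was at 14.2 and 14.8 CPM in the HE libraries, and 20.1 and 17.2 CPM in the WT libraries, and its call was lost without HE library 1 or WT library 1 (edgeR, adjusted p up to 0.186).

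**Figure D2:**
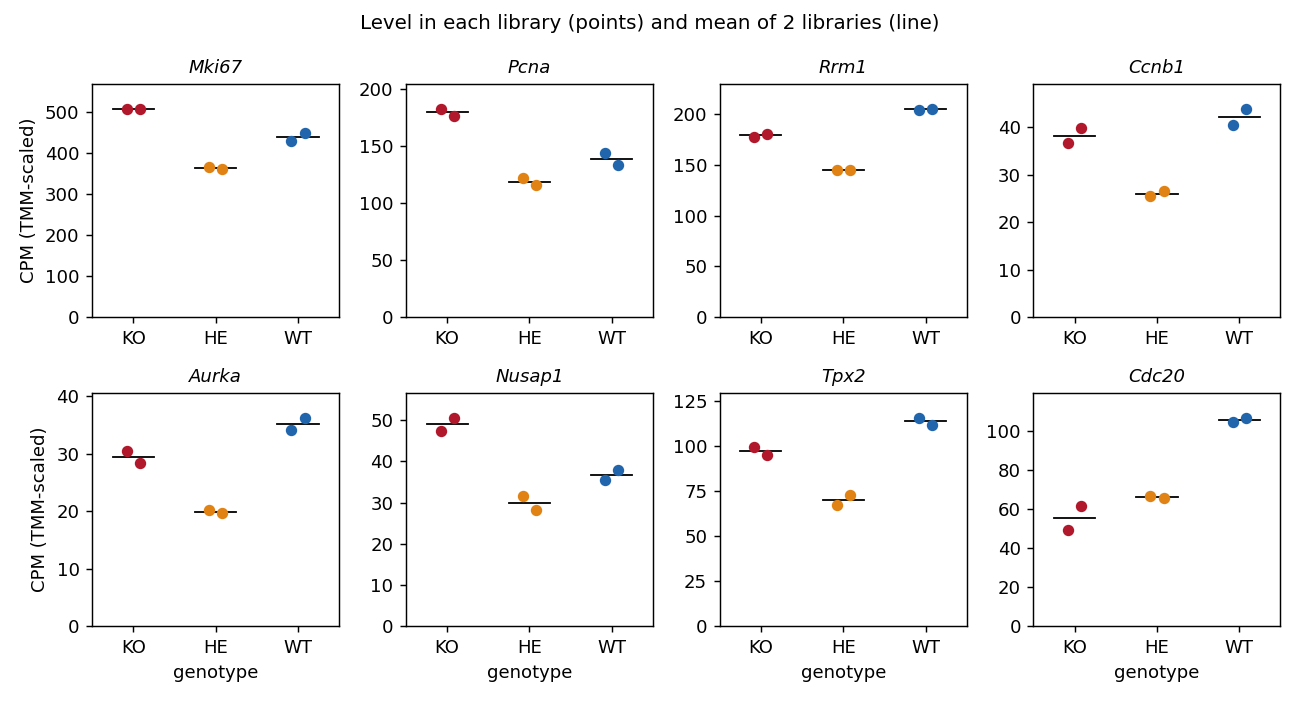
CPM of 8 cell cycle genes (vertical axis, starting at 0) by genotype (horizontal axis). Each point is a library and each line the mean of the 2 libraries of a genotype. In 7 of the 8 genes the HE libraries are lowest. In Cdc20 the KO libraries are lowest, and in Mki67, Pcna and Nusap1 the KO libraries lie above the WT libraries.

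The mitotic kinases and their partners held the largest decrease in HE among the 45 genes. Aurka encodes a kinase of the spindle poles and had 30.5 and 28.4 CPM in the KO libraries, 20.1 and 19.7 CPM in the HE libraries, and 34.1 and 36.3 CPM in the WT libraries. The genotypes did not overlap, and HE stood at 56.7% of WT (log2 -0.82 ± 0.08, SE, edgeR, adjusted p = 7.92e-11). Plk1, a kinase that acts throughout mitosis, had 59.7 and 55.6 CPM in the KO libraries, 37.5 and 41.6 CPM in the HE libraries, and 58.3 and 62.5 CPM in the WT libraries (HE against WT -0.61 ± 0.07, edgeR, adjusted p = 3.17e-10). Birc5 and Cdca8 encode survivin and borealin, subunits of the chromosomal passenger complex, and were at 69.9% and 70.1% of WT in HE (edgeR, adjusted p = 5.11e-07 and 2.54e-06). Aurkb, the kinase of that complex, had 25.4 and 32.4 CPM in the HE libraries, and 35.1 and 35.7 CPM in the WT libraries. The HE libraries of Aurkb were further apart than those of the other kinases, and without HE library 1 its call was lost (edgeR, log2 -0.12, adjusted p = 0.348).

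Of 6 genes of the centromere, kinetochore and spindle checkpoint, 5 were lower in HE, against 19.7% of all genes tested. Cenpa encodes the histone that marks centromeres, and had 33.0 and 31.7 CPM in the KO libraries, 21.9 and 22.9 CPM in the HE libraries, and 33.4 and 34.6 CPM in the WT libraries. It was low in the HE libraries alone (HE against WT log2 -0.60 ± 0.08, SE, edgeR, adjusted p = 6.29e-08). The checkpoint gene Bub1b, the motor gene Cenpe and the kinetochore gene Nuf2 changed by -0.49 ± 0.07, -0.39 ± 0.06 and -0.48 ± 0.08 (edgeR, adjusted p = 1.43e-07, 3.93e-07 and 2.27e-06). Cenpf, which encodes a large protein of kinetochores and the nuclear matrix, had 61.9 and 64.6 CPM in the KO libraries, 60.4 and 58.8 CPM in the HE libraries, and 65.9 and 61.2 CPM in the WT libraries. Its libraries lay close together, and its change in HE of -0.09 ± 0.06 did not pass the threshold (edgeR, adjusted p = 0.226).

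Genes of the spindle and of cytokinesis were lower in HE in 7 of 7, against 19.7% of all genes tested. Tpx2, which encodes an activator of Aurora A on the spindle, had 99.3 and 94.9 CPM in the KO libraries, 67.6 and 72.9 CPM in the HE libraries, and 116 and 112 CPM in the WT libraries. Prc1, which bundles microtubules of the midzone, had 86.0 and 84.3 CPM in the KO libraries, 56.4 and 58.4 CPM in the HE libraries, and 88.9 and 89.2 CPM in the WT libraries. For both genes HE lay lowest and WT highest (HE against WT log2 -0.69 ± 0.05 and -0.63 ± 0.05, SE, edgeR, adjusted p = 1.66e-15 and 1.57e-13). The cytokinesis kinesins Kif23 and Kif20a were at 65.4% and 68.0% of WT in HE (edgeR, adjusted p = 5.38e-09 and 3.35e-12). Nusap1, a spindle-binding protein gene, was lower by a log2 fold change of -0.30, and without HE library 2 the call was lost (edgeR, adjusted p = 0.0571).

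The 4 genes of chromosome structure were lower in HE too, against 19.7% of all genes tested. Mki67 encodes the proliferation antigen Ki-67, which coats mitotic chromosomes, and had 507 and 508 CPM in the KO libraries, 366 and 361 CPM in the HE libraries, and 429 and 449 CPM in the WT libraries. Top2a, which encodes a topoisomerase that untangles DNA, had 266 and 269.6 CPM in the KO libraries, 180.0 and 177 CPM in the HE libraries, and 232 and 235 CPM in the WT libraries. In both genes the 3 genotypes were separate, with HE lowest and KO highest (HE against WT log2 -0.27 ± 0.03 and -0.39 ± 0.03, SE, edgeR, adjusted p = 3.95e-11 and 3.41e-13). The condensin genes Ncapd2 and Ncapg changed by -0.44 ± 0.05 and -0.47 ± 0.09 in HE (edgeR, adjusted p = 1.75e-10 and 2.5e-05).

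**Figure D3:**
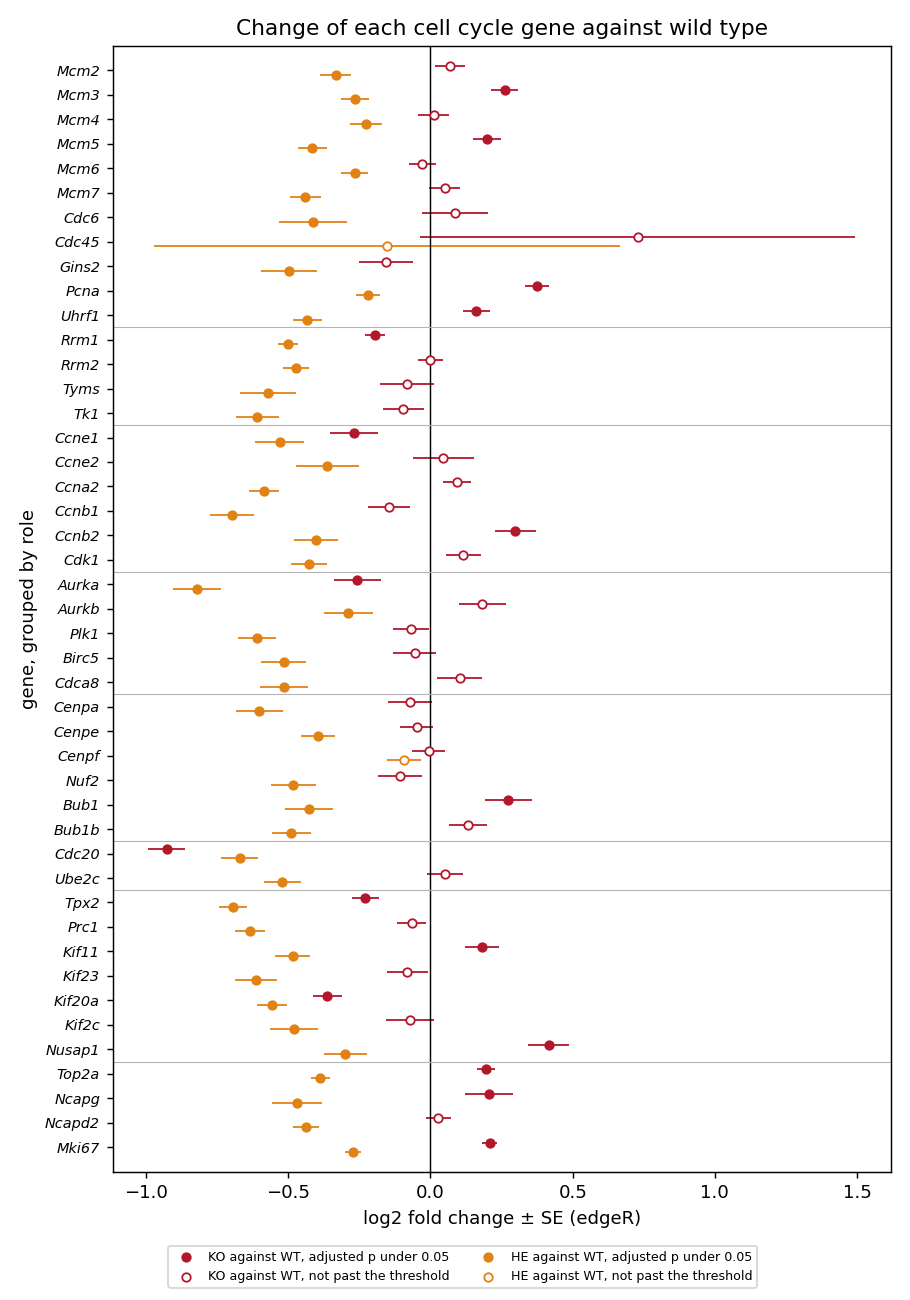
Log2 fold change with its SE (horizontal axis) of each of the 45 genes (vertical axis, grouped by role), in KO against WT (red, upper point of each pair) and HE against WT (orange, lower point). Filled points passed the edgeR threshold of 0.05 on the adjusted p and open points did not. The orange points lie left of 0 for all 45 genes, while the red points lie on both sides, with Cdc20 at -0.93.

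In knockout against wild type some cell cycle genes were higher and some lower, and Cdc20 had the largest change among those called. Of the 45, 11 were higher and 6 lower in KO (edgeR), against 19.2% and 18.9% of all genes tested, or 38.0% in either direction, and 28 did not pass the threshold. The median log2 fold change was 0.028 over the 45 genes and -0.0031 over all genes tested. The libraries of KO and WT did not overlap for 29 of 45 genes, against 66.6% of all genes tested, so the share called and the share apart were near those of all genes. Fibroblast markers summed to 23605 and 23483 CPM in the KO libraries, and 37870 and 38478 CPM in the WT libraries, while macrophage markers summed to 16580 and 16406 CPM in the KO libraries, and 14593 and 14316 CPM in the WT libraries. In KO the fibroblast list had 4 of 11 markers higher and 7 lower, and the macrophage list 9 of 14 higher and 1 lower, and adipocyte markers were higher in 7 of 7. Their part in the result was not tested. The KO and WT libraries held both Y-linked reads and Xist. Of these 5 sex-linked genes, 2 were called higher and 0 lower in KO, against 19.2% and 18.9% of all genes tested. Whether the sexes were matched in this comparison cannot be told.

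The 11 genes higher in KO than in WT lay between 112% and 133% of WT. They were Mcm3, Mcm5, Pcna and Uhrf1 of replication, Ccnb2, Bub1, Kif11 and Nusap1 of mitosis, and Top2a, Ncapg and Mki67 of chromosome structure. Pcna, the sliding clamp of DNA polymerases, had 182 and 176 CPM in the KO libraries, 122 and 115 CPM in the HE libraries, and 144 and 133 CPM in the WT libraries. The KO libraries lay above all others (KO against WT log2 0.38 ± 0.04, SE, edgeR, adjusted p = 3.61e-10). Nusap1 had 47.4 and 50.6 CPM in the KO libraries, 31.7 and 28.1 CPM in the HE libraries, and 35.6 and 37.9 CPM in the WT libraries. It was the largest of these increases, again with both KO libraries on top (0.42 ± 0.07, edgeR, adjusted p = 7.46e-06). Mki67, Top2a and Mcm3, with the levels given above for Mki67 and Top2a, were higher by 0.21 ± 0.03, 0.20 ± 0.03 and 0.26 ± 0.05 (edgeR, adjusted p = 1.89e-08, 2.63e-06 and 1.28e-05). Ccnb2, which encodes cyclin B2, had 48.2 and 50.8 CPM in the KO libraries, 27.7 and 33.1 CPM in the HE libraries, and 40.2 and 40.3 CPM in the WT libraries (KO against WT 0.30 ± 0.07, edgeR, adjusted p = 0.000886). The call of Ncapg was lost in 6 of 13 alternative fits: DESeq2, no filter, and each KO or WT library left out. That of Kif11 was lost in 4, and those of Bub1 and Uhrf1 in 2 each. Over the alternatives the log2 fold changes lay between 0.20 and 0.23 for Ncapg and between 0.18 and 0.20 for Kif11. They lay between 0.20 and 0.34 for Bub1 and between 0.11 and 0.21 for Uhrf1.

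The 6 genes lower in KO than in WT were Cdc20, Kif20a, Rrm1, Tpx2, Ccne1 and Aurka, and each of them was also lower in HE than in WT. The comparisons share the WT libraries. Kif20a had 74.9 and 75.0 CPM in the KO libraries, 66.7 and 64.3 CPM in the HE libraries, and 96.7 and 96.1 CPM in the WT libraries. Its WT libraries were well above the other 4 (KO against WT log2 -0.36 ± 0.05, SE, edgeR, adjusted p = 8.73e-08). Rrm1, Tpx2, Ccne1 and Aurka changed in KO by -0.19 ± 0.04, -0.23 ± 0.05, -0.27 ± 0.08 and -0.26 ± 0.08 (edgeR, adjusted p = 1.49e-05, 0.000143, 0.0094 and 0.00998). The call of Aurka was lost without KO library 2 or WT library 2, and that of Ccne1 without KO library 1 or WT library 1 (edgeR, adjusted p up to 0.127 and 0.146). For the 27 genes that did not pass, Cdc45 aside, log2 fold changes in KO lay between -0.16 and 0.18. Cdc45, a helicase subunit gene, had 10 and 23 counts in the KO libraries, 8 and 8 in the HE libraries, and 10 and 10 in the WT libraries, and no difference passed the threshold at these counts (edgeR, adjusted p = 0.504 in KO against WT).

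Cdc20 stood apart from the other members. It encodes the activator of the anaphase-promoting complex that starts chromosome separation and is held back by the spindle checkpoint, and it lies on chromosome 4 from 118432901 to 118437352 on the minus strand (GRCm38). Its level was 49.6 and 61.6 CPM in the KO libraries, 66.9 and 66.0 CPM in the HE libraries, and 104.6 and 107 CPM in the WT libraries. Both mutant genotypes lay far below WT, at 52.6% in KO (log2 -0.93 ± 0.07, SE, edgeR, adjusted p = 6.93e-13) and 62.8% in HE (-0.67 ± 0.06, edgeR, adjusted p = 8.41e-10). In KO against HE it was lower by -0.26 ± 0.07 (edgeR, adjusted p = 0.00301), and without KO library 1 this call was lost (log2 -0.11, adjusted p = 0.236). Exons of Cdc20 overlap Elovl1 on the opposite strand, and whether the counting used strand is not stated in the labels. Elovl1, a fatty acid elongase gene, had 129.9 and 125 CPM in the KO libraries, 189.5 and 180.2 CPM in the HE libraries, and 159 and 163 CPM in the WT libraries, so it was lower in KO and higher in HE than in WT. Ube2c, which encodes the ubiquitin-conjugating enzyme of the same complex, had 64.0 and 69.4 CPM in the KO libraries, 45.6 and 44.2 CPM in the HE libraries, and 68.1 and 60.7 CPM in the WT libraries. Its KO and WT libraries overlapped, and only HE was lower (HE against WT -0.52 ± 0.06, edgeR, adjusted p = 6.44e-09, KO against WT adjusted p = 0.566).

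In knockout against heterozygous, 42 of the 45 genes were higher and Cdc20 was lower (edgeR), against 19.1% and 17.9% of all genes tested, or 37.1% in either direction. This is also the test of whether the 2 mutant genotypes differ in their change against WT. The median log2 fold change was 0.51 over the 45 genes and 0.012 over all genes tested, and the 42 higher genes lay between 1.14-fold and 1.64-fold. KO and HE libraries did not overlap for any of the 45, against 65.7% of all genes tested. The genes with the smallest p-values were Top2a (log2 0.58 ± 0.03, SE, edgeR, adjusted p = 6.97e-19), Mki67 (0.48 ± 0.03, adjusted p = 9.15e-19), Pcna (0.60 ± 0.04, adjusted p = 1.19e-15) and Ccna2 (0.68 ± 0.05, adjusted p = 9.3e-15). Nusap1, Ccnb2 and Bub1 had the largest increases among the called genes, at 0.72 ± 0.07, 0.70 ± 0.08 and 0.70 ± 0.08 (edgeR, adjusted p = 1.08e-10, 2.42e-10 and 4.13e-09). Kif20a and Ccne1 were among the smallest, at 0.19 ± 0.05 and 0.26 ± 0.09 (edgeR, adjusted p = 0.00258 and 0.016), and the call of Ccne1 was lost in DESeq2 and without KO library 2 or HE library 2. Y-linked genes were at 0 in HE here as well, so genotype and the sex-linked difference cannot be told apart, and markers of other cells moved too. Fibroblast markers were lower in KO in 10 of 11 and higher in 0, 10 of 14 macrophage markers were higher and 2 lower, and 4 of 7 adipocyte markers were higher and 0 lower. The macrophage sum went the other way, with 16580 and 16406 CPM in the KO libraries, and 17408 and 17280 CPM in the HE libraries. The part of these markers in the result was not tested. With library totals in place of TMM factors, 43 members were higher and 1 lower, while over all genes 4126 were higher and 2256 lower, against 3070 and 2881.

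Cell cycle genes outside the 45 were read from further lists of the same machinery, 170 genes in all. These lists were chosen with earlier results of these data known, so they are not independent support. In HE against WT 108 were lower and 6 higher (edgeR), with a median log2 fold change of -0.31. In KO against WT 31 of the 170 were higher and 16 lower, with a median of 0.069, and in KO against HE 114 were higher and 7 lower. Over all genes tested, 19.7% were lower and 19.2% higher in HE against WT, 18.9% and 19.2% in KO against WT, and 17.9% and 19.1% in KO against HE. The 170 genes were lower in HE in 63.5%, while in KO against WT 18.2% were higher and 9.41% lower, shares no greater than those of all genes. In HE against WT, of 22 kinesin and cytokinesis genes 19 were lower and 0 higher, with Hmmr, a spindle protein gene, at -0.71 ± 0.08 and Kif4, a chromosome-bound kinesin, at -0.69 ± 0.08 (SE, edgeR, adjusted p = 1.36e-10 and 3.87e-09). Of 15 mitotic entry kinases and phosphatases 12 were lower, of 31 kinetochore and centromere genes 20, and of 40 genes of origins and forks 29, with 0 higher in each. Of 18 condensin and cohesin genes 8 were lower and 1 higher. The anaphase-promoting complex itself had 4 of 15 lower and 1 higher, and 2 of the lower genes, Fbxo5 and Ube2s, encode an inhibitor and a ubiquitin-conjugating partner rather than core subunits.

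**Figure D4:**
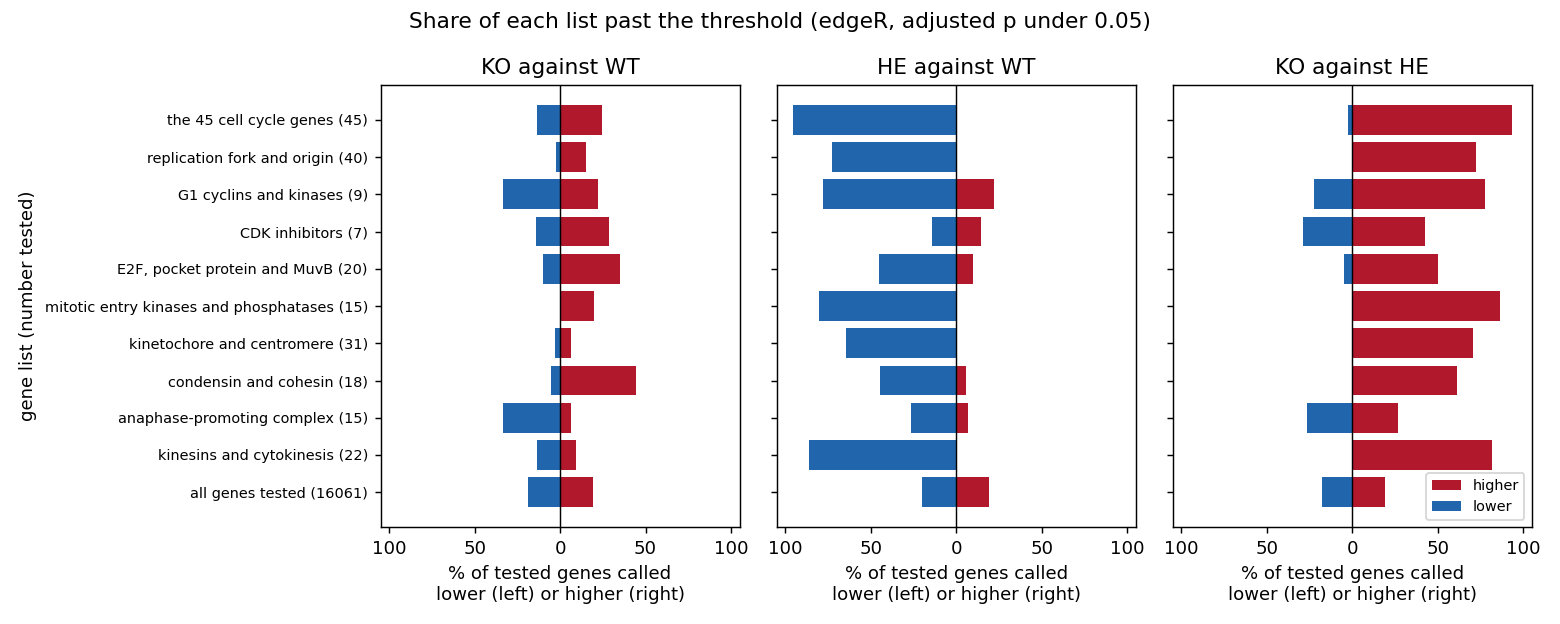
Share of tested genes called lower (blue, left) or higher (red, right) by edgeR at an adjusted p under 0.05 (horizontal axis, percent), for each list (vertical axis, number tested in brackets) and for all 16061 genes, in KO against WT, HE against WT and KO against HE. In HE against WT the 45 genes and most lists extend further to the left than all genes tested, and in KO against HE further to the right.

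Regulators of these genes were measured as well. Foxm1, the mitotic transcription factor gene, had 79.6 and 77.8 CPM in the KO libraries, 45.5 and 49.1 CPM in the HE libraries, and 77.5 and 69.8 CPM in the WT libraries. E2f2, which encodes an activating E2F factor, had 34.8 and 32.3 CPM in the KO libraries, 15.9 and 15.7 CPM in the HE libraries, and 27.95 and 26.8 CPM in the WT libraries. Both were lowest in HE (HE against WT log2 -0.64 ± 0.06 and -0.79 ± 0.09, SE, edgeR, adjusted p = 7e-12 and 1.11e-09). Rbl2, which encodes the pocket protein p130 of resting cells, had 70.7 and 63.4 CPM in the KO libraries, 70.7 and 74.4 CPM in the HE libraries, and 50.5 and 47.6 CPM in the WT libraries. It was higher in both mutant genotypes, by 0.45 ± 0.06 in KO and 0.56 ± 0.06 in HE against WT (edgeR, adjusted p = 4.94e-08 and 2.63e-10). In the whole list of 20 E2F, pocket protein and MuvB genes, 9 were lower and 2 higher in HE against WT, and 7 higher and 2 lower in KO against WT, to be read against the 19.7% and 19.2%, and the 19.2% and 18.9%, of all genes tested.

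Cyclins and kinases of the first gap phase and inhibitors of cyclin-dependent kinases were also read. Ccnd1, which encodes cyclin D1, had 758 and 773 CPM in the KO libraries, 679 and 671 CPM in the HE libraries, and 613 and 626 CPM in the WT libraries. Its levels were ordered KO above HE above WT without overlap, with changes of 0.30 ± 0.02 in KO and 0.12 ± 0.02 in HE against WT (log2, SE, edgeR, adjusted p = 2.34e-14 and 4.45e-05). Its list of 9 had 7 lower and 2 higher in HE, and 3 lower and 2 higher in KO, against WT. Over all genes tested, 19.7% were lower and 19.2% higher in HE, and 18.9% lower and 19.2% higher in KO. Cdkn1c, which encodes the inhibitor p57, had 3.09 and 1.73 CPM in the KO libraries, 12.3 and 13.6 CPM in the HE libraries, and 0.941 and 0.618 CPM in the WT libraries. It was highest in HE, with log2 fold changes of 4.05 ± 0.26 in HE and 1.62 ± 0.29 in KO against WT (edgeR, adjusted p = 4.17e-17 and 1.02e-05). Cdkn2c, which encodes p18, was higher in KO (0.49 ± 0.06, adjusted p = 4.8e-09), and Cdkn1a, which encodes p21, was lower in HE (-0.17 ± 0.03, adjusted p = 2.65e-05). Of the 7 inhibitor genes, 1 was higher and 1 lower in HE, and 2 were higher and 1 lower in KO, against WT, against 38.9% and 38.0% called over all genes tested. Of 20 genes of p53 and its targets, 4 were higher and 9 lower in each of these comparisons, which share the WT libraries, against 19.2% higher in both and 19.7% (HE) or 18.9% (KO) lower over all genes tested.

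Per length of annotated exons, members differed widely in level. Pcna was the highest in every genotype, at 74.7 CPM per kilobase in KO, 49.4 in HE and 57.6 in WT. Cdc20 was the next in WT at 56.6 CPM per kilobase, and at 29.8 in KO and 35.6 in HE. Rrm2 and Mki67 followed in WT, at 44.0 and 43.7 CPM per kilobase. The ring subunits Mcm3 to Mcm7 lay between 19.0 and 26.2 CPM per kilobase in WT and Mcm2 at 11.6. At the low end in WT were Cdc6 at 3.15 and Cdc45 at 0.0839 CPM per kilobase. Exon lengths are from GENCODE M21 with all isoforms joined, so a gene with long rare isoforms is read too low on this scale.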

How the data were processed

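RNA was sequenced from cultured mouse nucleus pulposus cells of 3 genotypes, with 2 libraries each. The authors deposited raw read counts per gene symbol; every value is a whole number and column totals differ. The columns were matched to libraries by title. HISAT2 version 2.0.4 and GRCm38 are named per the submitters' processing notes, while the counting tool, annotation and strand setting are not stated in the labels. Members that share exons with another gene (16 of 45, 14 of them with a gene on the opposite strand) or have a named pseudogene (4) are therefore uncertain to that extent. In HE against WT the overlapping genes Cops6 (Mcm7), Exosc9 (Ccna2) and Oip5 (Nusap1) were called lower, and Gse1 (Gins2) and Elovl1 (Cdc20) higher. In KO against WT Cops6, Cdc23 (Kif20a), Ints8 (Ccne2) and Elovl1 were called lower, and Lcorl (Ncapg) higher. Their part in the counts of the members was not tested.

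Counts were filtered by genotype with the default edgeR filter, scaled by TMM factors (0.974 to 1.02) and fitted in edgeR version 4.0.16 under R version 4.3.3, with all 6 libraries in a single robust quasi-likelihood fit with 3 residual degrees of freedom. The 3 contrasts were tested with two-sided F tests, adjusted by Benjamini-Hochberg over all 16061 genes tested, at a threshold of 0.05. Log2 fold changes carry an SE derived from the test, as the absolute log2 fold change divided by the square root of its F statistic. A count of 0 allows up to 3 counts, or 0.0880 to 0.104 CPM, for counting error only. Libraries of a genotype differed by more than counting noise (chi-square of 3.56 to 3.72 per degree of freedom). The procedure was tested on simulated counts.

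The members and the further lists were chosen with earlier results of these data known. Members with full statistics are at most 4 per role and comparison with the smallest p-values among those called, and likewise for genes of other lists. Ube2c and the other genes given with an uncalled comparison are named to account for every pattern. Elovl1 and the other overlapping genes given with a call were named after their values were seen. Alternatives were RLE size factors, library totals alone, DESeq2 version 1.42.0, no filter, a stricter filter, a fit of only the 4 libraries compared, the library number as a block, and each library left out in turn.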

Additional observations from a re-analysis of the deposited data

How the results depend on the processing

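The counts of called members were within 1.5 times the reported ones in every alternative except 1. In heterozygous against wild type the members called lower stayed between 40 and 43, and 0 were higher. In knockout against wild type 8 to 12 were higher and 5 or 6 lower. In knockout against heterozygous 41 to 43 were higher, and the single lower member, Cdc20, became 0 without KO library 1, with 0 to 1 over the left-out libraries. Over the 13 alternatives, 38 of the 43 calls in heterozygous against wild type, 40 of the 43 in knockout against heterozygous and 11 of the 17 in knockout against wild type were kept in every one, and no called member changed sign. With the library number as a replicate block, 43 members were lower in heterozygous and 11 higher and 6 lower in knockout against wild type, and no call changed. Over all genes tested, libraries of the same number did not deviate together (correlations of -0.0244 to 0.0181 between genotypes). With 2 libraries per genotype this is a single value per pair of genotypes, so it cannot decide whether the numbers pair the libraries. When a library is left out, the lone library of its genotype is assumed to vary like the others. Cdc45 had 8 to 23 counts per library, and what difference could be detected at each member's depth was not tested.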
